A study of Mus musculus with 400 samples.

Results

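The 10 transcription factor genes Runx1, Runx3, Etv1, Casz1, Zeb2, Pou4f1, Isl1, Tlx3, Prdm12 and Zfp521, known from the sensory lineage, were described across sensory neurons of the mouse dorsal root ganglion (DRG). They were chosen by name and make up 10 of the 24754 gene rows of the deposited tables. Single tdTomato+ cells were sorted from the C1-C8 DRG of 6 untreated (naive) mice that carried Nav1.8-Cre together with the R26CAG-floxStop-tdTomato reporter (strain label Nav1.8-Cre.Ai14, 6 to 12 weeks old), so every cell comes from the lineage in which Cre driven by the Nav1.8 sodium channel gene had switched the reporter on. The mice were labelled Blue and Red (run 1), Control (run 2), Control1 and Control2 (run 3) and Control6 (run 4), all carried the same alleles, and none was treated. The reporter keeps a history of Cre activity and not the present level of the channel, and neurons that never used Nav1.8 are missing by design.

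Cells were assigned to 6 gates by marker level, on values scaled to a common total per cell (CPM) without Rn45s and date-named rows. The gates were Mrgprd at 200 CPM or more (30.5% of kept cells), Mrgpra3 at 50 or more (47 cells), Sst or Nppb at 100 or more (46 cells), Th at 100 or more (39 cells), Calca at 2000 or more with Tac1 at 1000 or more (86 cells), and Nefh at 500 or more (26 cells). They correspond to the usual markers of non-peptidergic nociceptors (Mrgprd), of itch-related groups (Mrgpra3, and Sst with Nppb), of C-low-threshold mechanoreceptors (Th), of peptidergic nociceptors (Calca with Tac1) and of neurons with myelinated axons (Nefh). The gate genes were used to choose cells and are not reported as results.

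Of 394 cells with a column, 371 had at least 500 detected genes and were kept; 329 passed exactly 1 gate, 14 passed 2 and 28 none. Median depth per gate ran from 16933 counts (Sst/Nppb) to 67453 counts (Nefh). Markers of each gate's class that had not been used for gating were highest in that gate, except those fixed for the Mrgpra3 class, whose summed mean of 1035 CPM in the Mrgpra3 gate lay below the 1239 CPM of the Mrgprd gate; Mrgprb4 was seen in 3 of 47 Mrgpra3 cells. Neuronal markers were at 8678 to 9432 CPM in sum in all gates, and macrophage markers at 3.28 to 14.9 CPM, with Csf1r at 0 everywhere but in the Nefh gate. Satellite glial markers averaged 4710 CPM in the Nefh gate and 715 to 1667 CPM in the others. The Nefh gate also drew 17 of its 26 cells from mouse Control, so depth, glial RNA and 1 mouse move together there, and their part in any value of that gate was not tested.

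Sensory neurons of the DRG arise from neural crest and first share a common programme, in which the POU factor Pou4f1 (Brn3a) and the LIM-homeodomain factor Isl1 act in nearly all of them. The homeobox factor Tlx3 and the PR-domain factor Prdm12 are tied to nociceptor development in mice. The runt-domain factor Runx1 then directs mouse nociceptors towards the non-peptidergic fate, while its relative Runx3 is required in proprioceptors. The ETS factor Etv1 is best known from proprioceptors, and Casz1, Zeb2 and Zfp521 are zinc finger factors.

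Levels below are means over the cells of a gate within a mouse, for mice with at least 3 cells in the gate, given as mean ± SD over mice. Differences come from limma on log2(mean CPM + 5) over 21 combinations of mouse and gate, built from cells of exactly 1 gate, with mouse as a block. Each gate was set against the unweighted mean of the other 5, and p-values were adjusted over all 9169 tested genes. The gates entered with 6 mice (Mrgprd, Calca/Tac1), 4 mice (Sst/Nppb), 2 mice (Mrgpra3 and Th, both from run 1 alone) and 1 mouse (Nefh, the mouse Control, whose lone value is assumed to vary like the others). A fit without Control, or without cells rich in glial RNA, therefore also lacks the Nefh gate, and such values are set beside those of all cells without that gate. Run 1 has no Nefh and runs 2 to 4 no Mrgpra3 or Th combination, so runs were compared on the 3 gates that both hold (Mrgprd, Sst/Nppb, Calca/Tac1), each against the mean of the other two. Of the members, 9 were tested and Runx3 was too low.

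Across the 6 gates, 7 of the 9 tested members differed, where 24.5% of all tested genes did. Casz1 (adjusted p = 1.11e-08), Zeb2 (2.14e-08), Zfp521 (7.48e-08), Etv1 (6.53e-06), Runx1 (0.000102), Isl1 (0.00204) and Pou4f1 (0.0266) were called, and Tlx3 (0.147) and Prdm12 (0.412) were not. The calls of Isl1 and Pou4f1 rest on the run 1 mice: without Blue their adjusted p was 0.175 and 0.302, without Red 0.157 and 0.352. That of Pou4f1 was also lost without Control1 (0.0594), with no filter on low values (0.119), with the mean of log values over cells (0.0539) and without cells over 1000 CPM of glial markers (0.776, with neither Th nor Nefh in that fit). Tlx3 passed without Control1 (0.0223).

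**Figure D1:**
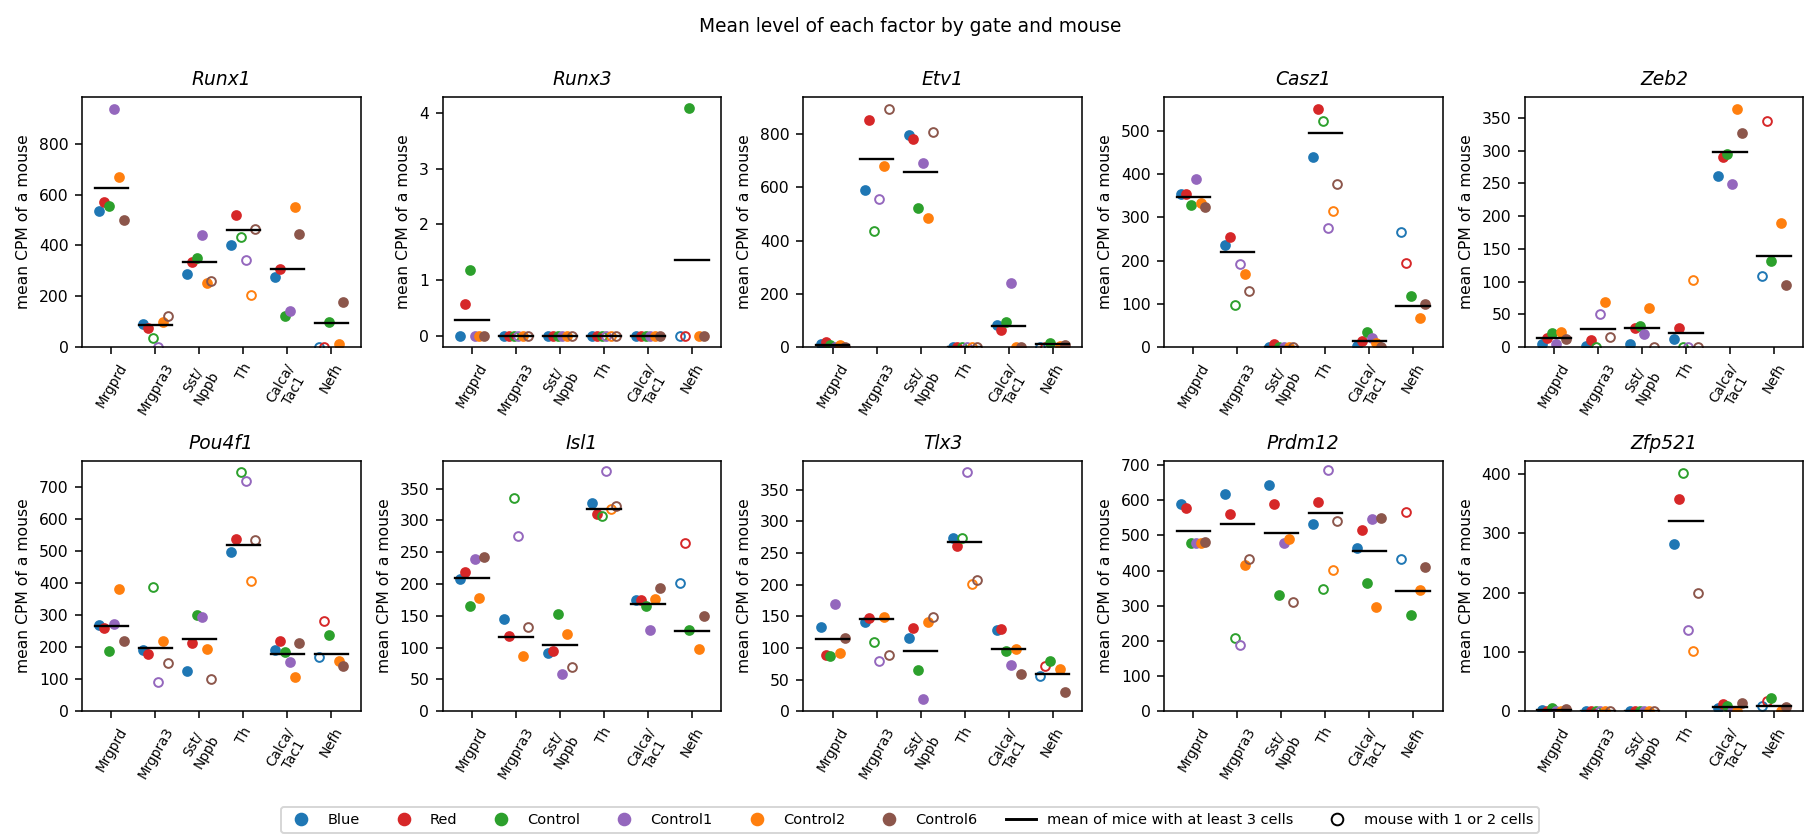
Mean CPM (vertical axis) of the 10 factors in each gate (horizontal axis), 1 point per mouse, open points for mice with 1 or 2 cells, and lines for the mean of mice with at least 3 cells. Etv1, Casz1, Zeb2 and Zfp521 have gates near 0, whereas Prdm12 averaged 342 CPM or more in every gate.

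Etv1, the ETS-domain activator, was present in the itch-related gates and low or at 0 in the Mrgprd, Th and Nefh gates. It stood at 591, 853 and 678 CPM in Mrgpra3 cells of Blue, Red and Control2, and at 798, 783, 522, 691 and 485 CPM in Sst/Nppb cells of Blue, Red, Control, Control1 and Control2. In the Th gate it was listed at 0 in all 39 cells, which allows up to 7.69% of cells with a count (3 of 39; a limit on detected cells, not on cells that use the gene), and in the Mrgprd gate the mice lay between 0 and 19.1 CPM (median 8.63). No mouse of these low gates reached any mouse of the high ones. Relative to the other gates, Etv1 was higher by 4.53 ± 0.91 (log2 difference ± SE) in the Mrgpra3 gate (adjusted p = 0.00879) and by 4.34 ± 0.66 in the Sst/Nppb gate (0.000103), and lower in the Mrgprd (−2.89 ± 0.61, 0.00252) and Th gates (−4.10 ± 0.91, 0.00774). Summed over cells, Etv1 was at least 308-fold higher in Mrgpra3 than in Th cells and at least 318-fold higher in Sst/Nppb than in Th cells, taking 3 counts over the Th gate as the floor. Between the Mrgpra3 and Sst/Nppb gates Etv1 differed by 0.16 ± 1.01 (adjusted p = 0.979), an error too wide to call them alike. Without Blue or without Red, the adjusted p was 0.573 and 0.844 in the Mrgpra3 gate, 0.332 and 0.433 in the Th gate and 0.0713 and 0.0663 in the Mrgprd gate; the log2 differences then lay at 4.75 and 4.32, −4.19 and −4.002, and −2.66 and −2.77. On the 3 gates that both hold, Etv1 in the Mrgprd gate differed by −5.29 (adjusted p = 4.83e-08) in run 1 and by −3.75 (0.0139) in runs 2 to 4.

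Peptidergic cells were split for Etv1. In the Calca/Tac1 gate 33 of 86 cells held a count (38.4%, exact 95% interval 28.1 to 49.5%, counting error only), and after thinning every cell to 10000 counts 30 of 81 did (37.04%). The carriers were 12 of 33 cells in Blue, 16 of 38 in Red, 3 of 4 in Control, 2 of 3 in Control1 and none of 4 in either Control2 or Control6. The mouse means thus ran from 0 to 241 CPM (median 73.8), and the gate as a whole did not pass the test against the others (0.29 ± 0.61, adjusted p = 0.859). It did lie below the Sst/Nppb gate: Sst/Nppb exceeded Calca/Tac1 by 3.37 ± 0.75 (adjusted p = 0.00345), in a comparison that called 3 of 9 members (Etv1, Zeb2, Isl1) and 15.6% of all genes.

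Casz1, a castor-family zinc finger factor, was high in the Th, Mrgprd and Mrgpra3 gates and low in the Sst/Nppb and Calca/Tac1 gates. It stood at 439 and 551 CPM in Th cells of Blue and Red, between 325 and 390 CPM (median 343) in Mrgprd cells of the 6 mice, and at 237, 255 and 169 CPM in Mrgpra3 cells of Blue, Red and Control2. In the Sst/Nppb gate it was 0 in 4 of 5 mice and 7.58 CPM in Red, and in the Calca/Tac1 gate 0 to 34.4 CPM (median 12.9). In Nefh cells it was 119.1, 67.1 and 98.98 CPM in Control, Control2 and Control6, with a count in 23 of 26 cells. Neither the 3 high gates nor the Nefh gate overlapped with the 2 low ones in any mouse with at least 3 cells. Casz1 was higher in the Mrgprd (2.703 ± 0.38, adjusted p = 5.36e-05) and Th gates (3.29 ± 0.58, 0.00098), and lower in the Sst/Nppb (−4.69 ± 0.42, 1.45e-07) and Calca/Tac1 gates (−3.16 ± 0.38, 1.32e-05). The Mrgpra3 gate, at 1.88 ± 0.58, missed the threshold (0.118). The Th difference was 3.201 (adjusted p = 0.181) without Blue and 3.37 (0.113) without Red, and on the 3 gates that both hold the Calca/Tac1 difference was −2.49 (0.000149) in run 1 and −1.25 (0.289) in runs 2 to 4.

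The Mrgpra3 gate was the only one of the 6 in which most cells held both genes. Counts of Etv1 and Casz1 together were found in 45 of 47 Mrgpra3 cells, against 10 of 26 Nefh cells (38.5%), 10 of 86 Calca/Tac1 cells (11.6%), 13 Mrgprd cells (11.5%), 3 of 46 Sst/Nppb and no Th cells. All 13 Mrgprd and all 10 Nefh cells with Etv1 also held Casz1, as did 10 of the 33 Calca/Tac1 cells with Etv1. Directly compared, Mrgpra3 exceeded Sst/Nppb in Casz1 by 5.47 ± 0.64 (adjusted p = 1.55e-05) and fell below it in Runx1 by −2.11 ± 0.45 (0.00638), the 2 members of 9 called there beside 5.2% of all genes. Mrgprd against Mrgpra3 likewise called 2 members, Runx1 (2.71 ± 0.44, 0.000863) and Etv1 (−6.19 ± 0.98, 0.000704), beside 3.14% of all genes.

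**Figure D2:**
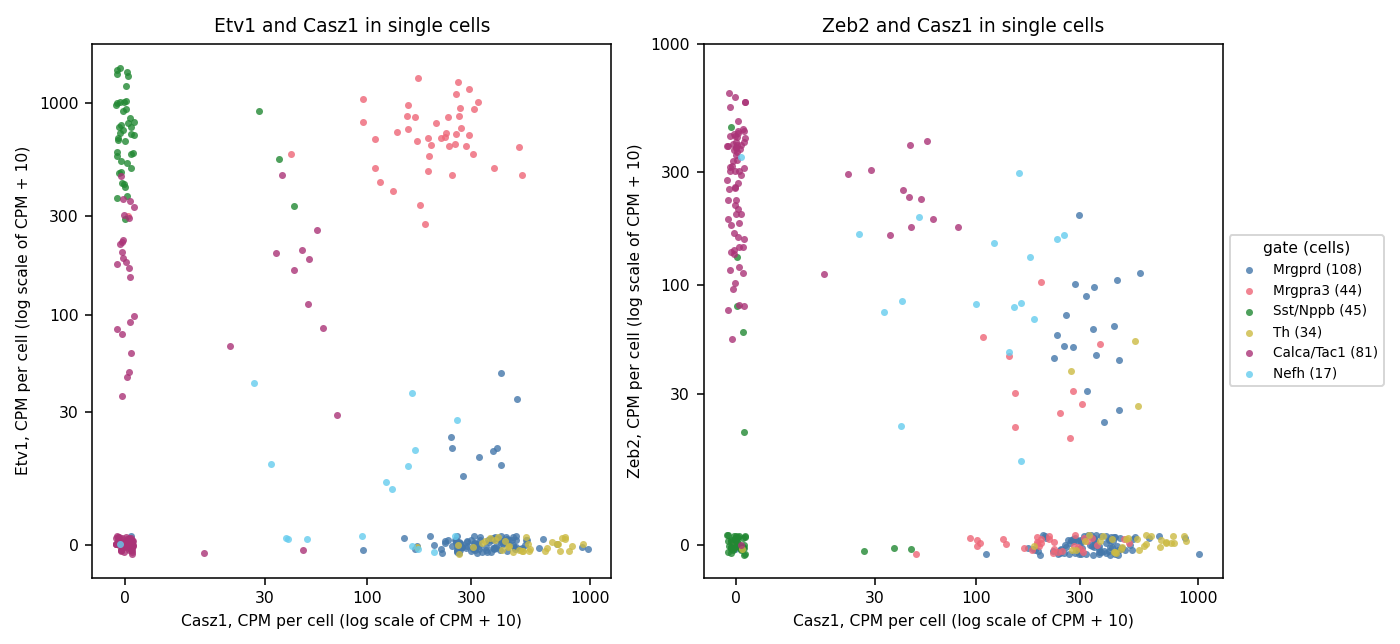
Etv1 against Casz1 (left) and Zeb2 against Casz1 (right) in the 329 cells of exactly 1 gate, each axis CPM per cell on a log scale of CPM + 10, with a small random shift so that points at 0 can be seen. Sst/Nppb cells line the Etv1 axis, Mrgprd and Th cells the Casz1 axis, and Mrgpra3 cells lie high on both.

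The DNA next to a transcription start is shown for 2 genes whose levels differed between the gates. For Etv1 and Casz1, 250 bases upstream of a RefSeq start are given (GRCm38.p6, plus strand). Each gene has another upstream window without the motif marked below, and the windows printed were chosen because they hold it. Neither printed window overlaps an annotated exon. The Etv1 window is chr12:38779832-38780081, inside the annotated gene, and the Casz1 window is chr4:148804142-148804391, upstream of it. Capitals mark the core motif of Runx proteins, TGTGGT or TGCGGT on either strand.
Etv1: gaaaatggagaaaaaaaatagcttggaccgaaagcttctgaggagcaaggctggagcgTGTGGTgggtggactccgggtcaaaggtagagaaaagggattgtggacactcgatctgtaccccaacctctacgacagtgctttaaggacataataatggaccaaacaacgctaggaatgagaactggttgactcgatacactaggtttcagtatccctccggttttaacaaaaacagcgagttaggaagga
Casz1: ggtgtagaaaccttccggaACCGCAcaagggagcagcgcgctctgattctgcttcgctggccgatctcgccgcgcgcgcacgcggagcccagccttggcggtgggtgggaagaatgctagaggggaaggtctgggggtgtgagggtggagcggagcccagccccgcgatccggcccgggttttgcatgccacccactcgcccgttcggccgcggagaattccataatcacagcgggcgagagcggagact

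This motif is common: 18.6% of 32851 upstream windows of the same length hold it, and 4 of the 16 windows of the 9 members with an entry did (Runx3, Etv1, Casz1 and Tlx3). The E-box CAGGTG bound by Zeb proteins occurs in 17.2% of windows, among members in Runx1, Runx3 and Pou4f1, and the homeodomain core TAATTA in 4.84% and in no member window. A match is a string of letters and not a bound site.

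Zeb2, a zinc finger repressor that binds E-boxes, was highest in the Calca/Tac1 gate. Its mouse means in Calca/Tac1 cells ran from 248 to 363 CPM (median 293), against 5.33 to 23.5 CPM (median 12.7) in Mrgprd cells, 2.17, 10.6 and 68.2 CPM in Mrgpra3 cells of Blue, Red and Control2, and 13.1 and 29.9 CPM in Th cells of Blue and Red. In Sst/Nppb cells of Blue, Red, Control, Control1 and Control2 it was 4.40, 28.5, 32.5, 19.4 and 59.96 CPM. Among mice with at least 3 cells, every Calca/Tac1 mean lay above every mean of the other gates, and Nefh cells were between, with 132, 190 and 95.4 CPM in Control, Control2 and Control6. All 26 Nefh cells held a Zeb2 count, and Calca/Tac1 against Nefh did not pass the test (1.39 ± 0.63, adjusted p = 0.653). Against the mean of the other gates Zeb2 was higher in the Calca/Tac1 gate by 3.77 ± 0.29 (adjusted p = 4.21e-08), and on the 3 gates that both hold by 4.17 in run 1 and 3.65 in runs 2 to 4. It was lower in the Th (−2.42 ± 0.43, 0.00115) and Mrgprd gates (−1.29 ± 0.29, 0.0042). The Th difference shrank to −0.47 (0.841) when cells of several gates were counted, and was −2.44 (0.098) without Blue and −2.41 (0.263) without Red. The Mrgprd difference was −1.26 (0.12) without Red and −0.91 both without Control (0.0764) and with all mice but without the Nefh gate (0.0527). On the 3 gates that both hold it was −2.33 (0.000246) in run 1 and −2.59 (0.000961) in runs 2 to 4.

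Glial RNA moved with Zeb2 in the gates where Zeb2 was low. In Mrgprd cells with over 1000 CPM of 4 glial genes (Apoe, Fabp7, Sox10, Cdh19) Zeb2 averaged 39.3 CPM, against 9.34 CPM in the Mrgprd cells at or under 1000 CPM. In Sst/Nppb cells the values were 121.8 CPM over that level (4 cells, 2 with a count) and 9.69 CPM at or under it (42 cells). In Th cells they were 84.6 CPM (9 cells) and 4.34 CPM (30 cells). Cells of 2 gates are included here. Zeb2 was counted in 8 of 39 Th cells, but in 3 of the 34 that passed only the Th gate. The part of cells of 2 gates in the Th values was not tested. In the Calca/Tac1 gate no such gap was seen, with 265 CPM in the 28 cells over and 291 CPM in the 58 cells at or under it, and all 58 at or under it held a Zeb2 count. Without the cells over 1000 CPM, a fit on 5 gates, the Calca/Tac1 difference was 5.33 (adjusted p = 1.37e-06), against 4.36 with all cells of the same 5 gates. On those gates the Mrgprd difference was −1.06 (adjusted p = 0.159) without the cells and −0.91 (0.0527) with them, and the Th difference −1.803 (0.08) without and −2.09 (0.00275) with them. Without cells over 1000 CPM of the longer list of glial markers 4 gates were left (no Th or Nefh), and on these the Mrgprd difference was −1.97 (adjusted p = 0.0101), against −1.52 (0.00117) with all cells. In the Nefh gate the 21 cells over 1000 CPM averaged 149 CPM of Zeb2, against 105.3 CPM in the 5 cells at or under it, and the part of glial RNA in its Zeb2 level was not tested. The antisense gene Zeb2os, which overlaps Zeb2, averaged 2.69 CPM, and the sources used here do not say whether strand entered the counting.

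**Figure D3:**
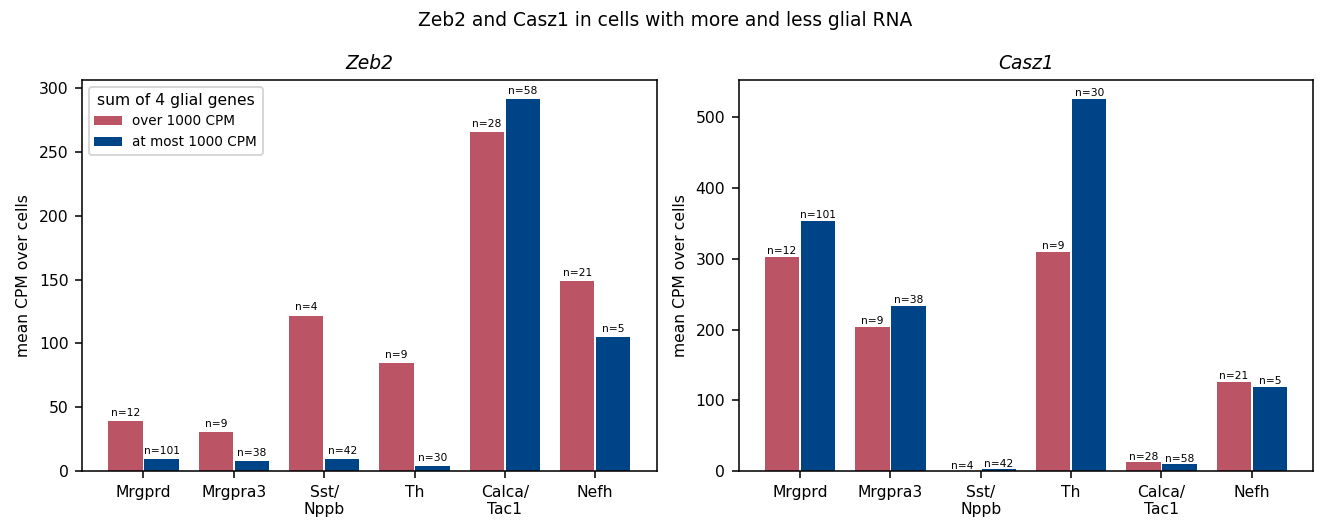
Mean CPM over cells of Zeb2 (left) and Casz1 (right) in cells with over 1000 CPM (left bars) and at most 1000 CPM (right bars) of 4 glial genes, by gate, with the number of cells above each bar. Zeb2 in Calca/Tac1 cells was 265 and 291 CPM, and in the Mrgprd, Mrgpra3, Sst/Nppb and Th gates it was below 10 CPM in cells with at most 1000 CPM of the glial genes.

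Zfp521, a zinc finger factor, was concentrated in the Th gate. It stood at 282 and 358 CPM in Th cells of Blue and Red, and was present in all 6 mice there, between 101.8 and 401.5 CPM in the 4 mice with 1 or 2 such cells. It was listed at 0 in all 47 Mrgpra3 and all 46 Sst/Nppb cells, which allows up to 6.38% and 6.52% of cells with a count, and was at most 22.1 CPM in any mouse with at least 3 cells in the Mrgprd, Calca/Tac1 or Nefh gate. The Th gate exceeded the others by 5.39 ± 0.43 (adjusted p = 1.06e-07), and was at least 182-fold above the Mrgpra3 gate and at least 84.3-fold above the Sst/Nppb gate with a floor of 3 counts over the gate. The lower levels in the Mrgprd (−1.68 ± 0.29, 0.000377), Mrgpra3 (−2.002 ± 0.43, 0.0148), Sst/Nppb (−1.76 ± 0.32, 0.000507) and Calca/Tac1 gates (−1.13 ± 0.29, 0.0133) are differences from a mean that includes the Th gate. Without Blue the adjusted p was 1.00 in the Mrgpra3 gate, 0.0581 in the Sst/Nppb gate and 0.208 in the Calca/Tac1 gate. Without Red it was 1 in the Mrgpra3 gate, 0.0771 in the Sst/Nppb gate, 0.32 in the Calca/Tac1 gate and 0.0611 in the Mrgprd gate. The Calca/Tac1 difference was also lost without Control (−0.83, 0.0778; −0.93, 0.0374 with all mice but without the Nefh gate), and the Mrgprd difference after thinning (−0.82, 0.125). In Th cells with over 1000 CPM of the 4 glial genes Zfp521 averaged 156 CPM, against 346 CPM in those at or under it, and without the cells over 1000 CPM the Th difference was 5.96, against 5.86 with all cells of the same 5 gates.

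Runx1, the runt-domain factor of non-peptidergic nociceptors, was present in every gate at graded levels. In Mrgprd cells it ran from 499 to 937 CPM (median 563), in Th cells it was 400 and 521 CPM in Blue and Red, and in Sst/Nppb cells 286, 335, 350, 443 and 252 CPM in Blue, Red, Control, Control1 and Control2. In Mrgpra3 cells it was 89.8, 73.98 and 99.6 CPM in Blue, Red and Control2, below every mouse of those gates. Calca/Tac1 cells spanned 123.4 to 552 CPM (median 293) and overlapped with most gates. Nefh cells ran from 14.4 to 177 CPM (median 98.1) in 3 mice. In the fit, the Nefh gate is Control alone, at 41.1 CPM. Runx1 was higher in the Mrgprd gate (1.58 ± 0.27, adjusted p = 0.000383) and lower in the Mrgpra3 gate (−1.67 ± 0.41, 0.0367), and this lower level had an adjusted p of 0.791 without Blue and 1 without Red. The Sst/Nppb call (0.86 ± 0.30, 0.0494) sat at the threshold. This difference was 0.42 (0.378) without the Nefh gate, where Runx1 was lowest in the fit. It was 0.28 (0.6) without Control, which also lacks that gate, and 0.79 (0.0837) without Control1. Without Blue and without Red it was 1.00 and 0.92 and was not called. On the 3 gates that both hold, Runx1 in the Mrgprd gate differed by 0.91 (adjusted p = 2.31e-05) in run 1 and by 0.81 (0.235) in runs 2 to 4. The Th gate missed the threshold (1.36 ± 0.41, 0.0539), as did the Nefh gate (−2.27 ± 0.59, 0.0918).

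Runx3, its relative in proprioceptors, was all but absent. It was counted in 4 of 371 cells, with 21 counts in all. Of these, 3 cells came from the Nefh gate of Control, at 197671 to 324984 counts among the deepest libraries, and held 5, 1 and 14 counts; 1 of them also passed the Mrgprd gate. The fourth, from Red, held 1 count in the Mrgprd gate. It was not counted in any Mrgpra3, Sst/Nppb, Th or Calca/Tac1 cell, which allows up to 6.38%, 6.52%, 7.69% and 3.49% of cells with a count at these depths, and no ratio is given at such counts. At 10000 counts per cell, 0 of 23 Nefh cells held one.

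The common sensory factors were found in most cells of every gate, and the Th gate had the highest mean of Pou4f1, Isl1 and Tlx3. For Prdm12 the Th mean was highest by less than its spread over mice. In the fitted combinations the Mrgpra3 gate was above the Th gate in Prdm12 (575 against 565 CPM). Pou4f1 was 499 and 540 CPM in Th cells of Blue and Red, against 189 to 382 CPM (median 265) in Mrgprd cells and 106.4 to 220 CPM (median 187) in Calca/Tac1 cells. Isl1 was 328 and 310 CPM in the same Th cells, against 90.9, 94.8, 152, 58.6 and 121.1 CPM in Sst/Nppb cells of Blue, Red, Control, Control1 and Control2. Tlx3 was 274 and 261 CPM in Th cells, above every mouse with at least 3 cells in the other gates (19.4 to 169 CPM). Pou4f1 (1.39 ± 0.36, adjusted p = 0.0203) and Isl1 (1.26 ± 0.28, 0.0079) were higher in the Th gate, and Isl1 lower in the Sst/Nppb gate (−0.80 ± 0.20, 0.00958); Tlx3 missed the threshold in both (1.202 ± 0.42, 0.108; −0.80 ± 0.30, 0.072). All 3 calls were lost without Blue and without Red, with adjusted p of 0.588 and 0.503 for Pou4f1, 0.58 and 0.447 for Isl1 in the Th gate, and 0.184 and 0.124 for Isl1 in the Sst/Nppb gate. On the 3 gates that both hold, the Isl1 difference in the Sst/Nppb gate was −1.03 (8.47e-05) in run 1 and −0.79 (0.329) in runs 2 to 4.

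Of the 15 pairs of gates, Sst/Nppb and Th had the most members called. Sst/Nppb against Th called 7 of 9 members, where 12.9% of all genes were called: Etv1 (7.03 ± 1.01) and Zeb2 (1.60 ± 0.48) higher, and Casz1 (−6.65 ± 0.64), Zfp521 (−5.96 ± 0.48), Isl1 (−1.71 ± 0.31), Tlx3 (−1.67 ± 0.46) and Pou4f1 (−1.36 ± 0.39) lower in Sst/Nppb cells. The median of all genes was −0.12 in this contrast, and of the 6 differences from the other gates it was beyond 0.1 in the Sst/Nppb (−0.17) and Nefh gates (0.14).

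Prdm12 was the most even member. Its gate means were 514 ± 54.5 CPM (Mrgprd, n = 6 mice), 532 ± 103.6 (Mrgpra3, n = 3), 506 ± 119.3 (Sst/Nppb, n = 5), 563.7 ± 44.99 (Th, n = 2), 457 ± 104.4 (Calca/Tac1, n = 6) and 342 ± 68.1 (Nefh, n = 3). The 3 Nefh mice (273 to 409 CPM) lay below every mouse with at least 3 cells in the Mrgprd, Mrgpra3 and Th gates, and the other gates overlapped. The Nefh difference of −0.68 ± 0.29 missed the threshold (adjusted p = 0.493), and the log2 differences of the 5 gates other than Nefh from the rest were 0.01 to 0.26.

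All 4 common factors (Pou4f1, Isl1, Tlx3, Prdm12) were counted together in 39 of 39 Th, 94.7% of Mrgprd cells, 43 of 47 Mrgpra3, 22 of 26 Nefh, 72 of 86 Calca/Tac1 and 29 of 46 Sst/Nppb cells. Median depth was 16933 counts in Sst/Nppb, 19859 in Calca/Tac1, 32443 in Th, 38554 in Mrgpra3, 46149 in Mrgprd and 67453 in Nefh cells. The joint share was not recomputed at equal depth, and the part of depth in it was not tested. At 10000 counts per cell Isl1 was seen in 62.5% of Sst/Nppb and 92.3% of Th cells, with exact 95% intervals of 45.8 to 77.3% and 79.1 to 98.4%.

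**Figure D4:**
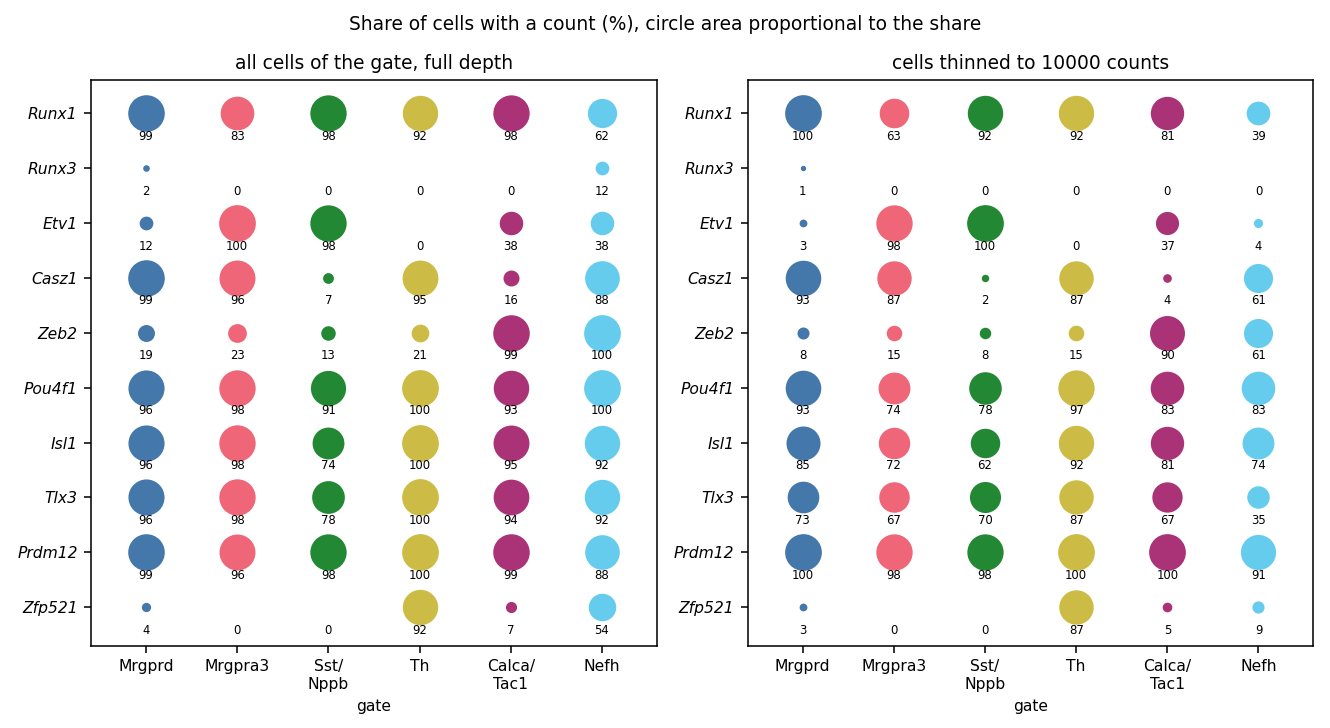
Share of cells with a count of each factor (circle area and printed percent) by gate, at full depth (left) and after thinning each cell to 10000 counts (right). Thinning left the Etv1 share of Calca/Tac1 cells at 37.04%, against 38.4% at full depth, and took the Zfp521 share of Nefh cells to 8.70%, against 53.8% at full depth.

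Depth, which was highest in the Nefh gate, moved with the combinations seen there. Its cells showed all of Etv1, Casz1, Zeb2 and Zfp521 in 7 of 26 cells, a combination seen in 2 Mrgprd cells (1.77%) and in no cell of the other gates; a cell that passes several gates counts in each. After thinning, no Nefh cell held all 4. Casz1 with Zeb2 was as common in the Nefh gate, in 7 of 26 cells, and was the leading combination after thinning, in 7 of 23. The leading combination of the other gates was also the same at both depths: Casz1 alone in 75.2% of Mrgprd cells (80.4% thinned), Etv1 with Casz1 in 35 of 47 Mrgpra3 cells (33 of 46), Etv1 alone in 36 of 46 Sst/Nppb cells (36 of 40), Casz1 with Zfp521 in 30 of 39 Th cells (29 of 39) and Zeb2 alone in 43 of 86 Calca/Tac1 cells (42 of 81).

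Across gates, 24.5% of all tested genes were called with limma, 54.1% with edgeR and 44.4% with DESeq2 on recovered counts. In members called per gate, the Th gate had 6 (Etv1, Casz1, Zeb2, Pou4f1, Isl1, Zfp521; 6.43% of all genes called), the Mrgprd gate 5 (12.1%), the Sst/Nppb gate 5 (19.4%), the Mrgpra3 gate 3 (2.14%) and the Calca/Tac1 gate 3 (9.89%). The Nefh gate had 0 called with limma (0.807% of all genes), 3 at an unadjusted p under 0.05, and 5 with edgeR and 3 with DESeq2 on recovered counts. In the order of gate levels, only 2 of the 45 steps between neighbouring gates passed the test, Etv1 between Sst/Nppb and Calca/Tac1, and Zfp521 between Th and Nefh (3.50 ± 0.74, adjusted p = 0.02). Th against Nefh called 3 members (Runx1, Zeb2, Zfp521) and 1.22% of all genes.

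**Figure D5:**
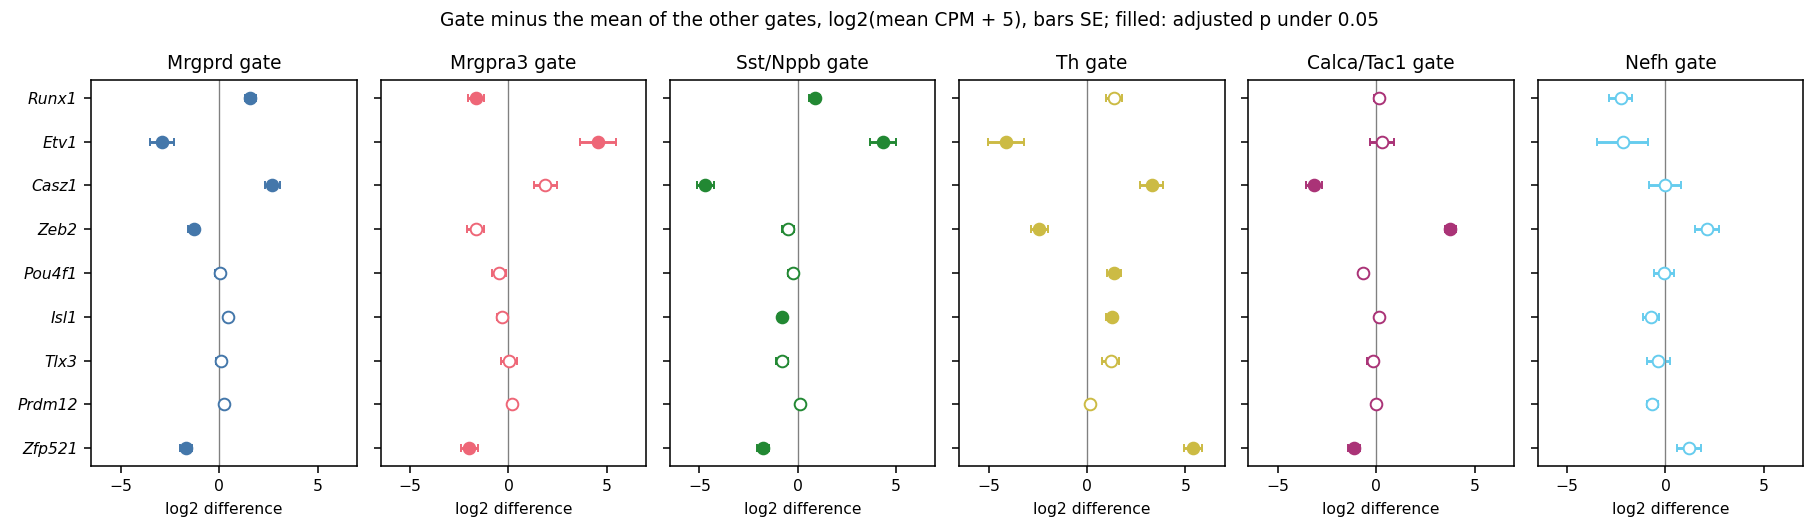
Log2 difference ± SE of the 9 tested members for each gate minus the mean of the other gates, filled where the adjusted p was under 0.05. Zfp521 in the Th gate (5.39) and Casz1 in the Sst/Nppb gate (−4.69) are the largest in either direction.

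Other genes of the lists also differed across gates; Gfra2, Lpar3, Osmr and Kit are also among the markers listed for the gates' classes. Of 40 other sensory transcription factors 21 were tested and 14 differed across gates, where 24.5% of all tested genes did, among them Zfhx3 (988 CPM in Th, 129 CPM in Calca/Tac1 cells), Pou4f2 (163 CPM in Th cells and 0 in Mrgpra3, Sst/Nppb and Calca/Tac1 cells), Nfib (158 CPM in Mrgpra3 and Calca/Tac1 cells, 7.94 CPM in Mrgprd cells) and Bcl11b (101.4 CPM in Calca/Tac1, 1.00 CPM in Mrgprd cells). Of 24 partners and cofactors 19 were tested and 7 differed, beside the same 24.5% of all genes. Cbfb, the common partner of Runx proteins, was lower in the Mrgprd gate (−1.11, adjusted p = 0.000226), at 72.5 CPM, and in the Sst/Nppb gate (−1.36, 5.77e-05), at 67.8 CPM. It was higher in the Calca/Tac1 gate (1.08, 0.000379), at 274 CPM. Over the 21 combinations its Pearson r with Runx1 was −0.63. The corepressor genes Runx1t1 (186 CPM) and Tle1 (296 CPM) were higher in the Sst/Nppb gate. Tle1 (0.87, adjusted p = 0.042) and the LIM-domain cofactor Ldb2 (0.97) were higher in the Mrgprd gate. Of 12 paralogs 6 were tested and 4 differed across gates (24.5% of all genes): Pou4f2, Isl2 (lower in Calca/Tac1, −1.49), Etv5 (lower in Sst/Nppb, −3.25, where Etv1 was high) and Prdm8 (lower in Sst/Nppb, −1.60).

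A list of 17 genes known to be lost or gained without Runx1 in mouse DRG had 12 tested. In the Mrgprd gate 8 were higher and 2 lower, where 12.1% of all tested genes were called, with a median difference of 1.75 against 0.09 for all tested genes. In the Th gate 3 were higher and 3 lower (6.43% of all genes called; median −0.64), and in the Sst/Nppb gate 1 was higher and 5 lower (19.4%; median −0.81 against −0.17 for all genes). Gfra2, the GDNF-family receptor, averaged 605 CPM in Mrgprd and 893 CPM in Th cells, and 2.44 CPM in Mrgpra3 cells; Lpar3 averaged 542 CPM in Mrgprd cells and 0 in Mrgpra3 and Sst/Nppb cells. Calcb was lower in the Sst/Nppb gate (−4.92), where Runx1 was 354 CPM in the fitted combinations. It was higher in the Mrgprd gate (2.01, adjusted p = 0.000115), where Runx1 was 641 CPM. In the Calca/Tac1 gate, with Runx1 at 329 CPM, Calcb was higher as well (1.39, 0.00458). The part of Runx1 in these levels was not tested.

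By Pearson r over the 21 combinations of mouse and gate, which share mice and libraries, the gene most like Etv1 was Osmr, a receptor subunit of oncostatin M and interleukin-31 signalling (r = 0.92). Zeb2 was most like the receptor tyrosine kinase gene Kit (0.97; 392 CPM in Calca/Tac1 cells), Casz1 like Tmsb4x (0.95), and Zfp521 like Rprm (0.94; 259 CPM in Th cells). Runx1 was most like Zcchc18 (0.85), Isl1 like the sodium pump subunit gene Atp1b3 (0.87), Tlx3 like Naa60 (0.88), Prdm12 like Slc7a8 (0.86) and Pou4f1 like Aig1 (0.79). Among members the highest r was 0.70 for Isl1 with Tlx3 and the lowest −0.75 for Etv1 with Isl1.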

How the data were processed

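Per the labels' protocols, tdTomato+ cells were sorted singly and made into libraries by digital RNA sequencing. STAR 2.7.3a and the mm10 build appear in the submitters' processing notes; the counting, its use of strand and the scaling are not given in the sources used here. The authors deposited a signal for each gene in each cell, equal to its count multiplied by a cell-specific factor. Dividing by the commonest positive value gave whole reads for a median of 96.4% of low values (tolerance 0.1); whole reads were claimed for 252 of 394 columns, and the other 142 were rounded where counts were needed. All 394 columns were used, no 2 were identical, and 6 labelled cells were not analysed here. No excluded cell (23 in all) had more than 383 counts. Cell depth ran from 918 to 324984 counts (median 30366), which limits shares of cells; intervals are exact Clopper-Pearson, the limit for 0 cells with a count is 3 divided by the number of cells, and both cover counting error only. Rn45s (7.10% of signal) and 26 date-named rows (0.154%) were removed before CPM.

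The main test was limma 3.58.1 (R 4.3.3) with a trended prior, mouse as a block and Benjamini-Hochberg adjustment at 0.05, on genes averaging 10 CPM or more; adding 5 before the log understates changes of low genes. The block pairs gates of the same animal, per the labels. The Mrgpra3 and Th gates have 2 mice of run 1 and the Nefh gate 1, so run and gate cannot be told apart there. On simulated data the fit was tested with 200 changed genes. Alternatives included edgeR 4.0.16 and DESeq2 1.42.0 on recovered counts. Members, gates, lists and tests were chosen with earlier results of these data known. Named genes were the members, up to 4 called genes of smallest p per list, and the 3 genes of highest r with each member, of which the first is printed; some of the genes this rule names are not reported here. Positions are from GENCODE vM21 (GRCm38) and upstream sequences from RefSeq (GRCm38.p6), matched by symbol; Zfp521 and other sequences are not printed. The sum of 4 glial genes was chosen after seeing the data.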

Additional observations from a re-analysis of the deposited data

Results flagged for a closer look

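In the Sst/Nppb gate, the Casz1 level of mouse Red was 7.58 CPM, against 0 in each of the other 4 mice, and it stood apart by Dixon's test at the 95% level. It comes from 3 of the 46 cells of the gate, with 3 counts in all. With the other 4 mice at 0, any value above 0 in Red would have been marked, so the mark does not measure its size. Of 27 groups of mice tested, 1 was marked. The rate of about 1 group in 20 marked by chance does not describe a group with all other mice at 0.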

How the results depend on the processing

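Of 22 called member differences, 0 changed direction under any alternative. Apart from the fits on the same gates, 5 kept their call in every one. These were Casz1 and Runx1 in the Mrgprd gate, Casz1 and Etv1 in the Sst/Nppb gate, and Zeb2 in the Calca/Tac1 gate. On the 3 gates that run 1 and runs 2 to 4 both hold, Runx1 in the Mrgprd gate did not pass in runs 2 to 4. Zfp521 in the Th gate lost its call only with edgeR (7.40, adjusted p = 1), where the mean of the other gates includes gates with no count; its other alternatives kept it. Leaving out 1 mouse at a time gave 5 to 7 members across gates, 2 to 3 in the Calca/Tac1 gate, 0 to 4 in the Mrgpra3 gate, 2 to 5 in the Mrgprd gate, 0 to 1 in the Nefh gate, 2 to 5 in the Sst/Nppb gate and 1 to 8 in the Th gate; without Blue the Mrgpra3 gate had 0 called and 4 at an unadjusted p under 0.05, and without Red 0 and 5. A fit without Blue or Red leaves the Mrgpra3 and Th gates 1 mouse, assumed to vary like the others.

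Member counts that moved were as follows. With mice of runs 2 to 4 alone there were 4 across gates, 1 in the Calca/Tac1 gate, 3 in the Mrgprd gate and 2 in the Sst/Nppb gate; with run 1 alone the Mrgpra3 gate had 7. With at least 5 cells per mouse and gate there were 5 (Calca/Tac1), 7 (Mrgpra3), 8 (Mrgprd) and 4 (Nefh). The Mrgpra3 gate had 1 with a pseudocount of 1, 5 with 20, 5 with all cells of each gate and 5 with edgeR. The Mrgprd gate had 3 after thinning. The Nefh gate had 2 with no filter, 2 with the mean of log values, 2 with all cells, 2 after thinning, 1 with doubled and 5 with halved thresholds, 5 with edgeR, 3 with DESeq2 and, with at least 2 cells, an alternative chosen after seeing the data, 1. With no replicate block it had 1, and 2166 genes were called across gates in place of 2248. All tested genes moved too, which bears on the member and list counts alike. The share of them called across gates was 24.5% in the main fit, 51.1% with at least 5 cells and 48.6% in run 1. It was 54.1% with edgeR, 44.4% with DESeq2 and 7.96% in runs 2 to 4. Shares of all genes for each gate in these settings are not given here. The cause of these shifts was not tested. Genes called across gates numbered 4961 with edgeR, 4070 with DESeq2, 4614 with at least 5 cells, 4388 in run 1, 733 in runs 2 to 4, 3876 with no filter, 1182 without cells over 1000 CPM of glial markers, and 1043 and 1019 without Blue and Red. Prdm12 passed across gates with edgeR (adjusted p = 0.00231), DESeq2 (0.00469), halved thresholds (0.0119) and at least 5 cells (0.000729). Tlx3 passed with edgeR (1.76e-09), DESeq2 (1.77e-08), the mean of log values (0.0466), at least 5 cells (0.000142), at least 2 cells (0.0113), no replicate block (0.0275), run 1 alone (5.02e-05) and without Control1 (0.0223). Fits on run 1, without Control or without cells rich in the 4 glial genes lack the Nefh gate, those without cells rich in glial markers also Th, and those on runs 2 to 4 lack Mrgpra3 and Th, so the gates set against each other differ there too. Fits on the same gates were chosen after seeing the data. Of the other gene lists, the other sensory factors gave 8 to 9 calls without Blue, without Red, in runs 2 to 4 or without the cells rich in glial markers, against 14; the partners gave 12 in run 1, 11 with edgeR and 3 in runs 2 to 4, against 7; the paralogs gave 7 with no filter, 2 without Red, 2 without the cells rich in glial markers and 0 in runs 2 to 4, against 4.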
